A study of Rattus norvegicus with 16 samples.

Results

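Hox genes of the 4 vertebrate clusters were followed through 4 regions of the rat brain under anesthesia. They were taken as every gene of the platform annotation whose symbol is Hox, a cluster letter from a to d and a paralog number, each read by its brightest probe set. That rule found 23 genes among the 15037 named genes of the array, each with 1 probe set. The 23 were 5 genes of cluster a (chromosome 4), 7 of cluster b (chromosome 10), 5 of cluster c (chromosome 7) and 6 of cluster d (chromosome 3), and RefSeq lists 39 rat Hox genes in all. The 16 others were not analysed here.

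Hox genes encode homeodomain transcription factors that assign position along the head-to-tail axis of the embryo. Their order along each cluster follows the order of their expression, so that genes with low paralog numbers reach forward into the hindbrain and genes with high numbers stay in the trunk and tail. The forebrain and midbrain lie in front of all Hox domains, and hindbrain neurons keep part of their Hox code into adult life.

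The regions were the lateral habenula (LHb) and medial habenula (MHb), which belong to the forebrain, and in the hindbrain the medial vestibular nucleus (MVe), which handles balance signals, and the solitary nucleus (Sol), which receives visceral sensory input. Male Wistar rats of 8 to 10 weeks were treated for 60 min with sevoflurane at 2.4%, with O2, with propofol at 36 mg/kg per hour after a 10 mg/kg bolus, or with Intralipos, a 10% lipid emulsion given at the same rate as the control of propofol; oxygen at 40% and 6 L/min was given throughout. Tissue was cut by laser from Nissl-stained sections, so each array measured a mixture of all cells in the cut field. There was 1 array per region and treatment, 16 in all, and the labels do not say how many rats gave an array or whether regions shared rats, so the spread between arrays may be partly technical.

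The labelled regions were checked against single markers taken from longer lists. Gpr151, a habenular receptor, averaged 14.04 in LHb and 16.30 in MHb (log2 signal, n = 4 arrays each) against 4.94 in Sol and 5.01 in MVe. Dbh, the enzyme that makes noradrenaline, averaged 11.03 in Sol and 3.58 or less elsewhere, and Spp1, a marker of vestibular neurons here, averaged 12.86 in MVe and 6.84 or less elsewhere. Between the habenular parts, the medial marker Chat averaged 11.55 in MHb and 6.29 in LHb, and the lateral marker Htr2c 12.45 and 16.51. Not every listed marker followed its label. Calb2, listed as medial, averaged 14.20 in MHb and 16.52 in LHb. Glp1r and Phox2a, listed for Sol, averaged 3.96 and 4.19 there against 3.88 and 3.86 in MVe. Ttr, the defining transcript of the choroid plexus, averaged 17.56 in MVe and 13.94 in MHb and ran from 7.18 to 15.10 over the 4 Sol arrays. Choroid plexus lies within the ventricles that border these regions. The arrays fell into a pair of sets: the average probe set read 7.20 to 7.21 on arrays of sevoflurane and O2 but 6.97 to 6.99 on those of propofol and Intralipos, and an anesthetic and its own control always lay in the same set. Negative-control probe sets had medians of 4.71 to 5.04 and 4.57 to 4.80 in these sets, and the habenula signals of the 23 Hox genes, from 2.88 to 6.37, lay around those values.

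Promoter sequences are shown for 3 of the genes on which the results turn, to set the strongest hindbrain genes beside a weak one. They run from 250 bases before to 50 bases after the transcript start that the RefSeq promoter table (GRCr8) uses for the gene, and are written 5′ to 3′ on the gene's strand; the table holds 12 of the 23 genes and 5 of the 10 that passed a test below. Capitals mark matches, on either strand, to TGATNNAT (the composite site of Pbx and Hox proteins, 9.10% of 33469 promoters of this length), TGACAG (the core of the Meis site, 19.0%), and AGGTCA (16.2%) and AGTTCA (14.47%), the hexamers of the retinoic acid response element.
Hoxa2, chr4:82595643-82595942, minus strand: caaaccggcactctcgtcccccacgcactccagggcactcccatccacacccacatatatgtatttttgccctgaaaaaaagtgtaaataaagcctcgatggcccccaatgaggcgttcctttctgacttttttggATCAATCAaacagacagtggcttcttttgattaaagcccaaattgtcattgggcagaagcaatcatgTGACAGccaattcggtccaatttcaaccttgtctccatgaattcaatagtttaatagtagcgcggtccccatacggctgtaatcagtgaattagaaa
Hoxc4, chr7:136048809-136049108, plus strand: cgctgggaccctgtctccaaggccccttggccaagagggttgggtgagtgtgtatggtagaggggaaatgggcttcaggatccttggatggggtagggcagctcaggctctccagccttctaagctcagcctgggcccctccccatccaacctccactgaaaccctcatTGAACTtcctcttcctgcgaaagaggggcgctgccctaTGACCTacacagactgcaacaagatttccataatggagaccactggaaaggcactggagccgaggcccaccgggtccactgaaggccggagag
Hoxa7, chr4:82648192-82648491, minus strand: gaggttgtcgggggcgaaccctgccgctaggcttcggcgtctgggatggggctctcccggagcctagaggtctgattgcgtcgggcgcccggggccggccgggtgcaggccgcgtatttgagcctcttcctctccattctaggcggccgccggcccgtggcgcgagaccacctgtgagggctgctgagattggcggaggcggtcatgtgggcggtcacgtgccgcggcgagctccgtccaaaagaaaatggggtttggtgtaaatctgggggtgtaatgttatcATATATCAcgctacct
The Hoxa2 window held 1 match to TGATNNAT and 1 to TGACAG with 9 CpG dinucleotides, and the Hoxc4 window held 1 match to AGGTCA and 1 to AGTTCA with 6 CpG. The Hoxa7 window held 1 match to TGATNNAT and was rich in CpG, with 29, against a median of 7 over all promoters and 25.5 over the 12 Hox promoters. Hoxa6 and Hoxd3, with 30 and 19 CpG, held no match in their windows. The start used for Hoxc4 is the outer end of the RefSeq gene, but those for Hoxa2, Hoxa7 and Hoxd3 lie 1897, 4208 and 4528 bases inside the gene, so other starts of these genes are not shown. A match describes the letters and does not show a bound site.

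The first comparison asked which Hox genes stood above the forebrain level. In the hindbrain nuclei together 10 of the 23 genes were higher than in the habenula and 0 were lower (limma over all 16 arrays with region and treatment as terms, adjusted p under 0.05 over 15037 genes). Of all genes 38.1% passed, 19.8% higher and 18.3% lower. All 10 were also higher in Sol alone (34.8% of all genes passed, 18.5% higher and 16.3% lower), while 4 were higher in MVe alone (36.8%, 18.1% and 18.8%). The MVe count, 4 of 23, is near the 18.1% of all genes called higher there, so the MVe calls are given as single genes. The difference between Sol and MVe was tested directly: the same 10 genes were higher in Sol and 0 were lower (35.2% of all genes passed, 19.3% higher and the rest lower). By paralog number, the 10 comprised all 5 measured genes of groups 2 to 4 (Hoxa2, Hoxb3, Hoxd3, Hoxb4 and Hoxc4) and 5 of 7 genes of groups 5 to 8 (Hoxb5, Hoxc5, Hoxa6, Hoxa7 and Hoxb8). Hoxd1, the gene of group 1 analysed here, and the 10 genes of groups 9 to 13 passed none of these tests.

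The hindbrain log2 signals of the 10 genes are given in the order sevoflurane, O2, propofol and Intralipos, and differences are followed by their moderated standard error. Signals of different probe sets are not comparable with each other, so genes are compared by their differences between regions. In such mixed tissue, fewer cells of a type and less RNA per cell cannot be told apart.

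**Figure D1:**
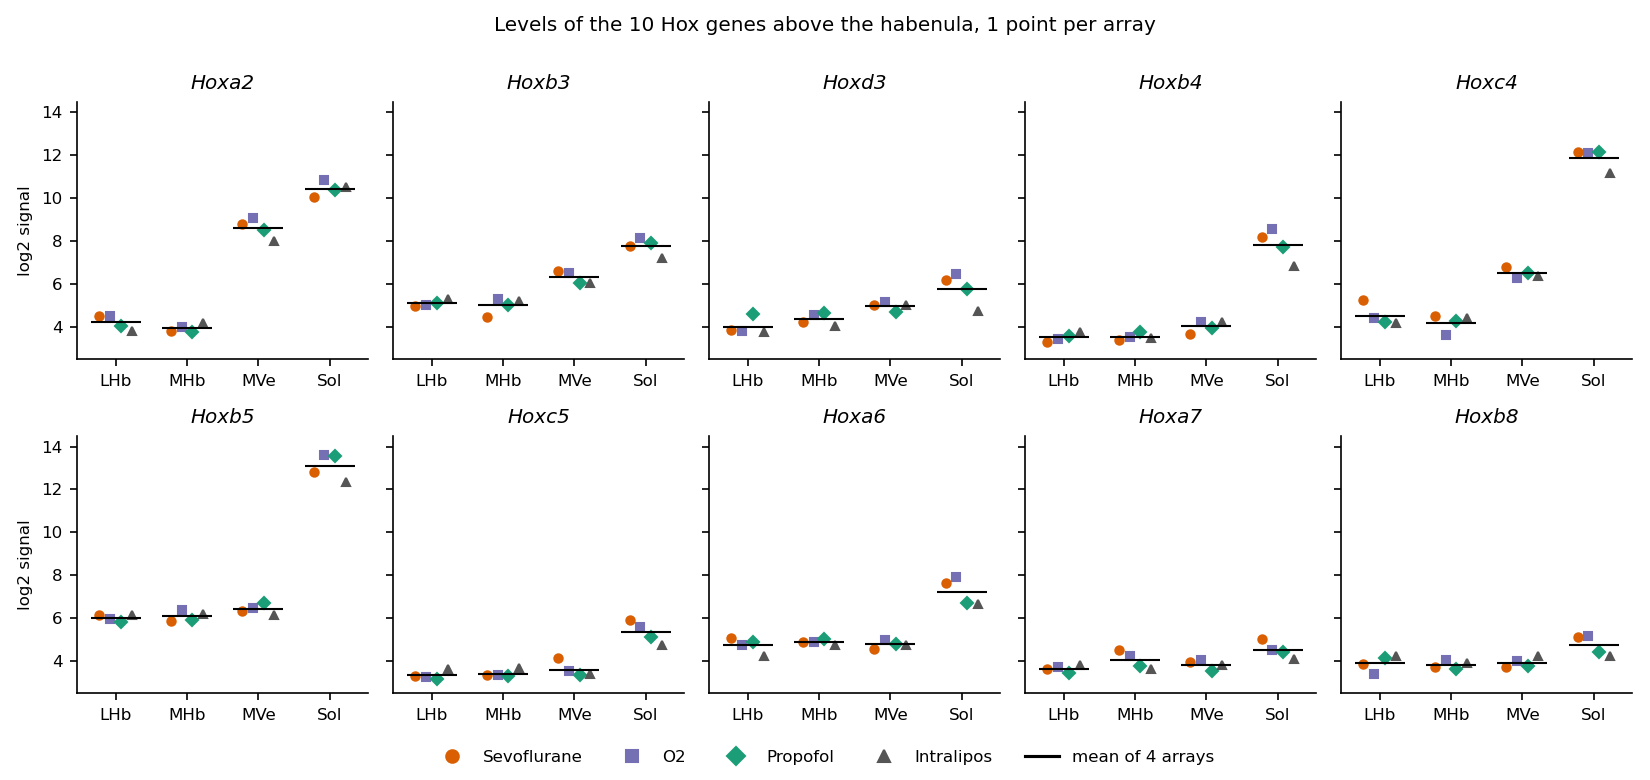
Log2 signal (y axis) of the 10 Hox genes that passed the test, by region (x axis); each point is 1 array, shape and colour give the treatment, and the bar is the mean of 4 arrays. The Sol mean is the highest for every gene, and all MVe arrays lie clear of the habenula for Hoxa2, Hoxb3, Hoxd3 and Hoxc4.

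Hoxa2, the Hox gene with the most forward boundary in the embryonic hindbrain, was high in both hindbrain nuclei. Its Sol arrays read 10.04, 10.84, 10.40 and 10.51, its MVe arrays 8.80, 9.08, 8.53 and 8.00, and the 8 habenula arrays ran from 3.77 through a median of 4.01 to 4.51. The 3 ranges did not overlap. Sol exceeded the habenula by 6.37 ± 0.17 (82.7-fold, adjusted p = 3.06e-15), MVe exceeded it by 4.53 ± 0.17 (23.03-fold, adjusted p = 2.97e-13), and Sol exceeded MVe by 1.84 ± 0.20 (limma, adjusted p = 7.12e-07). Of the 10 genes it had the largest MVe difference. Within the sets of arrays the Sol difference was 6.23 for sevoflurane with O2 and 6.50 for propofol with Intralipos.

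Group 3 genes, which in the embryo start in the middle of the hindbrain, were graded in the same order. Hoxb3 read 7.77, 8.15, 7.93 and 7.22 in Sol and 6.60, 6.52, 6.04 and 6.07 in MVe, against 4.46 to 5.32 (median 5.08) in the habenula. No 2 of these ranges overlapped, and the differences were 2.71 ± 0.18 for Sol over the habenula (adjusted p = 8.92e-10), 1.25 ± 0.18 for MVe over the habenula (1.89e-05) and 1.46 ± 0.21 for Sol over MVe (2.05e-05, limma). Hoxd3 read 6.17, 6.48, 5.75 and 4.74 in Sol and 5.02, 5.16, 4.71 and 5.0045 in MVe, against 3.76 to 4.64 (median 4.15) in the habenula. Both nuclei lay above every habenula array, but the Sol Intralipos array fell within the MVe range. Sol exceeded the habenula by 1.59 ± 0.22 (adjusted p = 1.02e-05), MVe exceeded it by 0.78 ± 0.22 (0.00781), and Sol exceeded MVe by 0.81 ± 0.25 (0.0165, limma). The last call did not hold without the Sol sevoflurane array (0.66, adjusted p = 0.0782), the Sol O2 array (0.60, 0.0910) or the MVe propofol array (0.63, 0.0811), in the propofol and Intralipos arrays alone (0.39, 0.425), or in the fit with no treatment term (0.81, 0.0518). Within the sets of arrays the Hoxd3 difference of Sol from the habenula was 2.21 for sevoflurane with O2 and 0.97 for propofol with Intralipos. The MVe call for Hoxd3 did not hold without the MVe Intralipos array (0.59, adjusted p = 0.0627) or in the propofol and Intralipos arrays alone (0.58, 0.137).

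Both measured group 4 genes, whose embryonic boundary lies in the caudal hindbrain, separated Sol from MVe widely. Hoxb4 read 8.17, 8.55, 7.74 and 6.86 in Sol and 3.69, 4.26, 3.93 and 4.22 in MVe, with 3.30 to 3.77 (median 3.51) in the habenula. All Sol arrays stood far above the other regions, and 3 of 4 MVe arrays lay above every habenula array. Its difference was 4.30 ± 0.22 for Sol over the habenula (19.7-fold, adjusted p = 2.24e-11) and 3.81 ± 0.25 for Sol over MVe (13.99-fold, 1.39e-09), and 0.49 ± 0.22 for MVe over the habenula, which missed the threshold (limma, adjusted p = 0.0890). That last value passed without the LHb Intralipos array (0.58, adjusted p = 0.0467), without the Sol Intralipos array (0.0143), in the sevoflurane and O2 arrays alone (0.56, 0.0421) and in a fit of MVe and habenula arrays only (0.00849). Hoxc4 read 12.13, 12.09, 12.13 and 11.17 in Sol and 6.78, 6.29, 6.53 and 6.38 in MVe, against 3.63 to 5.28 (median 4.34) in the habenula. The 3 ranges were separate. Hoxc4 had the largest Sol difference of the 23 genes, 7.51 ± 0.19 (183-fold, adjusted p = 1.49e-15), with 2.13 ± 0.19 in MVe (4.36-fold, 3.87e-08) and 5.39 ± 0.22 between the nuclei (41.8-fold, 1.69e-12, limma). The Hoxc4 Sol difference was 7.65 and 7.37 within the respective sets of arrays, and that of Hoxb4 was 4.95 and 3.66.

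Groups 5 and 6, whose genes are best known from the cervical and brachial spinal cord, were called in Sol and not in MVe. Hoxb5, which is also expressed in the enteric neural crest, read 12.80, 13.62, 13.57 and 12.33 in Sol and 6.33, 6.46, 6.73 and 6.17 in MVe, against 5.85 to 6.37 (median 6.05) in the habenula. MVe overlapped the habenula and Sol stood far above both. The Sol difference of Hoxb5 was 7.02 ± 0.19 (130-fold, adjusted p = 3.73e-15), its MVe difference was 0.37 ± 0.19 (0.154), and Sol exceeded MVe by 6.66 ± 0.22 (101-fold, 1.61e-13, limma), the widest gap between the nuclei among the 23 genes. Hoxc5, one of the genes that shape phrenic motor neurons, read 5.94, 5.58, 5.15 and 4.76 in Sol and 4.16, 3.52, 3.35 and 3.42 in MVe, against 3.18 to 3.66 (median 3.34) in the habenula. Only the MVe sevoflurane array of Hoxc5 lay above the habenula range. Its differences were 1.97 ± 0.18 for Sol (adjusted p = 6.22e-08), 0.22 ± 0.18 for MVe (0.377) and 1.75 ± 0.21 between the nuclei (2.32e-06, limma). Hoxa6 read 7.65, 7.93, 6.70 and 6.67 in Sol and 4.57, 5.01, 4.82 and 4.75 in MVe, against 4.24 to 5.07 (median 4.88) in the habenula. All MVe arrays of Hoxa6 fell inside the habenula range. Sol exceeded the habenula by 2.42 ± 0.19 (5.35-fold, adjusted p = 7.26e-09) and MVe by 2.45 ± 0.22 (6.09e-08), and MVe minus the habenula was -0.03 ± 0.19 (0.921, limma).

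The remaining called genes, Hoxa7 and Hoxb8, were only slightly higher in Sol, at signals around the negative controls. The negative-control medians of the Sol arrays were 4.71, 4.73, 4.57 and 4.67 in the order given above. Hoxa7 lay below them on the O2, propofol and Intralipos arrays, and Hoxb8 on the propofol and Intralipos arrays. Hoxa7, known for patterning the trunk skeleton, read 5.02, 4.52, 4.44 and 4.12 in Sol, 3.97, 4.07, 3.53 and 3.80 in MVe, and 3.45 to 4.54 (median 3.74) in the habenula. Its Sol arrays all lay above MVe, by as little as 0.05, and only the sevoflurane array lay above the whole habenula range. Sol exceeded the habenula by 0.68 ± 0.15 (1.60-fold, adjusted p = 0.00134) and MVe by 0.68 ± 0.17 (0.00426, limma). Hoxb8, whose loss in mice causes excessive grooming and which marks a lineage of microglia, read 5.15, 5.19, 4.45 and 4.27 in Sol, 3.71, 3.996, 3.76 and 4.25 in MVe, and 3.43 to 4.25 (median 3.90) in the habenula. The Sol arrays of Hoxb8 lay above all others, the Intralipos array by 0.01 over the highest MVe array. Sol exceeded the habenula by 0.88 ± 0.20 (1.84-fold, adjusted p = 0.00167) and MVe by 0.83 ± 0.23 (0.00789, limma). The list of 8 microglial genes averaged 9.08, 9.05, 8.18 and 7.79 over the same Sol arrays, and its part in the Hoxb8 values was not tested. In the propofol and Intralipos arrays alone neither gene passed: Hoxa7 was at 0.62 over the habenula (adjusted p = 0.0542) and 0.61 over MVe (0.0967), and Hoxb8 at 0.36 (0.259) and 0.35 (0.349), against 1.40 and 1.31 for Hoxb8 in the sevoflurane and O2 arrays. For both nuclei together against the habenula, Hoxa7 was at 0.34 ± 0.12 (adjusted p = 0.0352) and Hoxb8 at 0.46 ± 0.16 (0.0300, limma). That call of Hoxa7 did not hold without any one of the sevoflurane, O2 or propofol arrays of LHb, the propofol or Intralipos arrays of MHb, the sevoflurane or propofol arrays of Sol, or the O2 or Intralipos arrays of MVe (adjusted p from 0.0539 to 0.0967). That of Hoxb8 did not hold without any one of the sevoflurane or O2 arrays of LHb, the sevoflurane or propofol arrays of MHb, the sevoflurane or O2 arrays of Sol, or the Intralipos array of MVe (from 0.0549 to 0.0854).

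**Figure D2:**
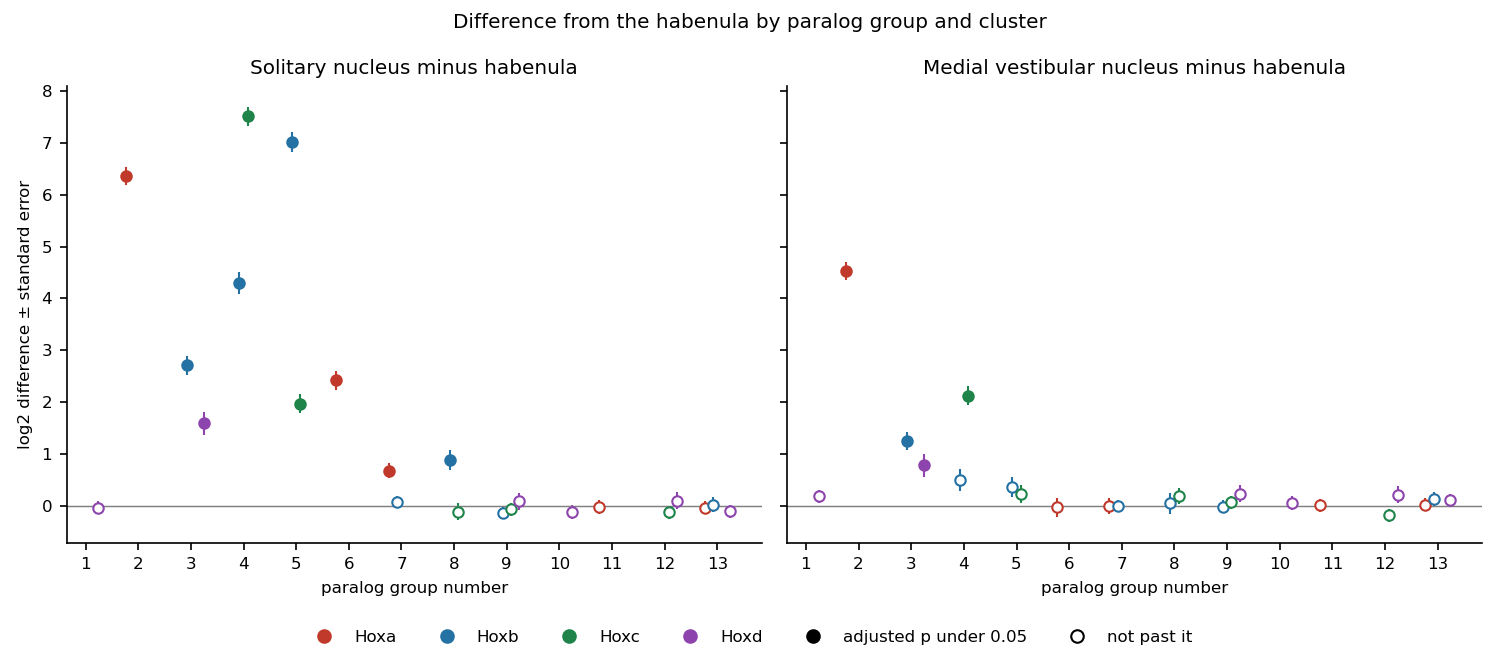
Log2 difference from the habenula (y axis, ± moderated standard error) of the 23 Hox genes by paralog group number (x axis), for Sol on the left and MVe on the right; colour gives the cluster, and filled points have an adjusted p under 0.05. Differences in Sol reach 7.51 in group 4 and end at group 8, while in MVe the filled points end at group 4.

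By paralog group, the last called gene was in group 8 in Sol and in group 4 in MVe. The Sol calls of groups 7 and 8 rest on Hoxa7 and Hoxb8, whose signals lay around the negative controls. Over the 5 genes of groups 2 to 4 the median difference from the habenula was 4.30 in Sol, with 5 genes higher, and 1.25 in MVe, with 4 higher. Over the 7 genes of groups 5 to 8 it was 0.88 in Sol, with 5 higher, and 0.05 in MVe, with 0 higher. Over groups 9 to 13 the medians were -0.05 and 0.06 with 0 of 10 called, and over all 15037 genes they were -0.02 in Sol and 0.02 in MVe. The clusters were represented unevenly in Sol, with 3 of 5 genes of cluster a called, 4 of 7 of cluster b, 2 of 5 of cluster c and 1 of 6 of cluster d. In MVe each cluster gave 1 called gene, namely Hoxa2, Hoxb3, Hoxc4 and Hoxd3, a count near the share of all genes called higher there. The gradation was not even within a group, since the called differences in Sol ran from 1.97 to 7.02 between Hoxc5 and Hoxb5, the pair of group 5 genes measured.

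Separation of single arrays gave a similar count. Every Sol array lay above every MVe array for 9 of the 23 genes, all called genes but Hoxd3 (13.8% of all genes were separated in this direction). Every Sol array lay above all 8 habenula arrays for 9 genes, all called genes but Hoxa7 (7.53% of all genes), and every MVe array did so for Hoxa2, Hoxb3, Hoxd3 and Hoxc4 (7.01%).

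No Hox gene distinguished the lateral from the medial habenula in the test of all genes (0 of 23 by limma, where 28.5% of all genes passed, 14.1% higher and 14.4% lower in LHb), and 2 had an unadjusted p under 0.05 (36.8% of all genes). Hoxc9 was 0.33 ± 0.14 higher in LHb (adjusted p = 0.105), with its LHb arrays at 3.85, 4.03, 4.09 and 3.92 above the MHb arrays at 3.56, 3.74, 3.67 and 3.62 (11.3% of all genes were separated in this direction). Hoxa7 was -0.39 ± 0.17 in LHb minus MHb (adjusted p = 0.103, limma), and its MHb arrays of sevoflurane and O2, at 4.54 and 4.24, were the highest of the 8 habenula arrays.

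The other 13 genes, mostly from the upper end of the clusters, passed none of the tests between regions. The genes Hoxd1, Hoxb7, Hoxc8, Hoxb9, Hoxc9, Hoxd9, Hoxd10, Hoxa11, Hoxc12, Hoxd12, Hoxa13, Hoxb13 and Hoxd13 stayed between 2.88 and 4.92 on all 16 arrays. Hoxd1 belongs to the group with the earliest hindbrain role, and Hoxa13, Hoxb13 and Hoxd13 pattern the limb tips, the genital region and the tail. Their differences ran from -0.14 to 0.10 for Sol minus the habenula (adjusted p from 0.465 to 0.944), from -0.18 to 0.23 for MVe minus the habenula (from 0.306 to 0.997) and from -0.30 to 0.08 for Sol minus MVe (from 0.235 to 0.891, limma), with 0 of 13 at an unadjusted p under 0.05 in each. Called and uncalled genes can share a paralog number, and their difference was not tested: Hoxa7 was called in Sol at 0.68 and Hoxb7 was at 0.08, and Hoxb8 was called at 0.88 and Hoxc8 was at -0.11.

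One of these 13 genes, picked after its values were seen, followed the sets of arrays and not the regions. Hoxc12 lay between 4.26 and 4.92 on the 8 arrays of sevoflurane or O2 but between 3.27 and 3.82 on the 8 propofol and Intralipos arrays. The ranges did not overlap in any region, and set and treatment cannot be told apart for it. How many of all genes split in this way was not counted. The sets also differed in their array medians over named genes, 6.90 to 7.19 against 6.60 to 6.82. Its differences from the own control of each anesthetic did not pass, with 0.04 ± 0.15 for sevoflurane (adjusted p = 0.998) and -0.17 ± 0.15 for propofol (0.883, limma).

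**Figure D3:**
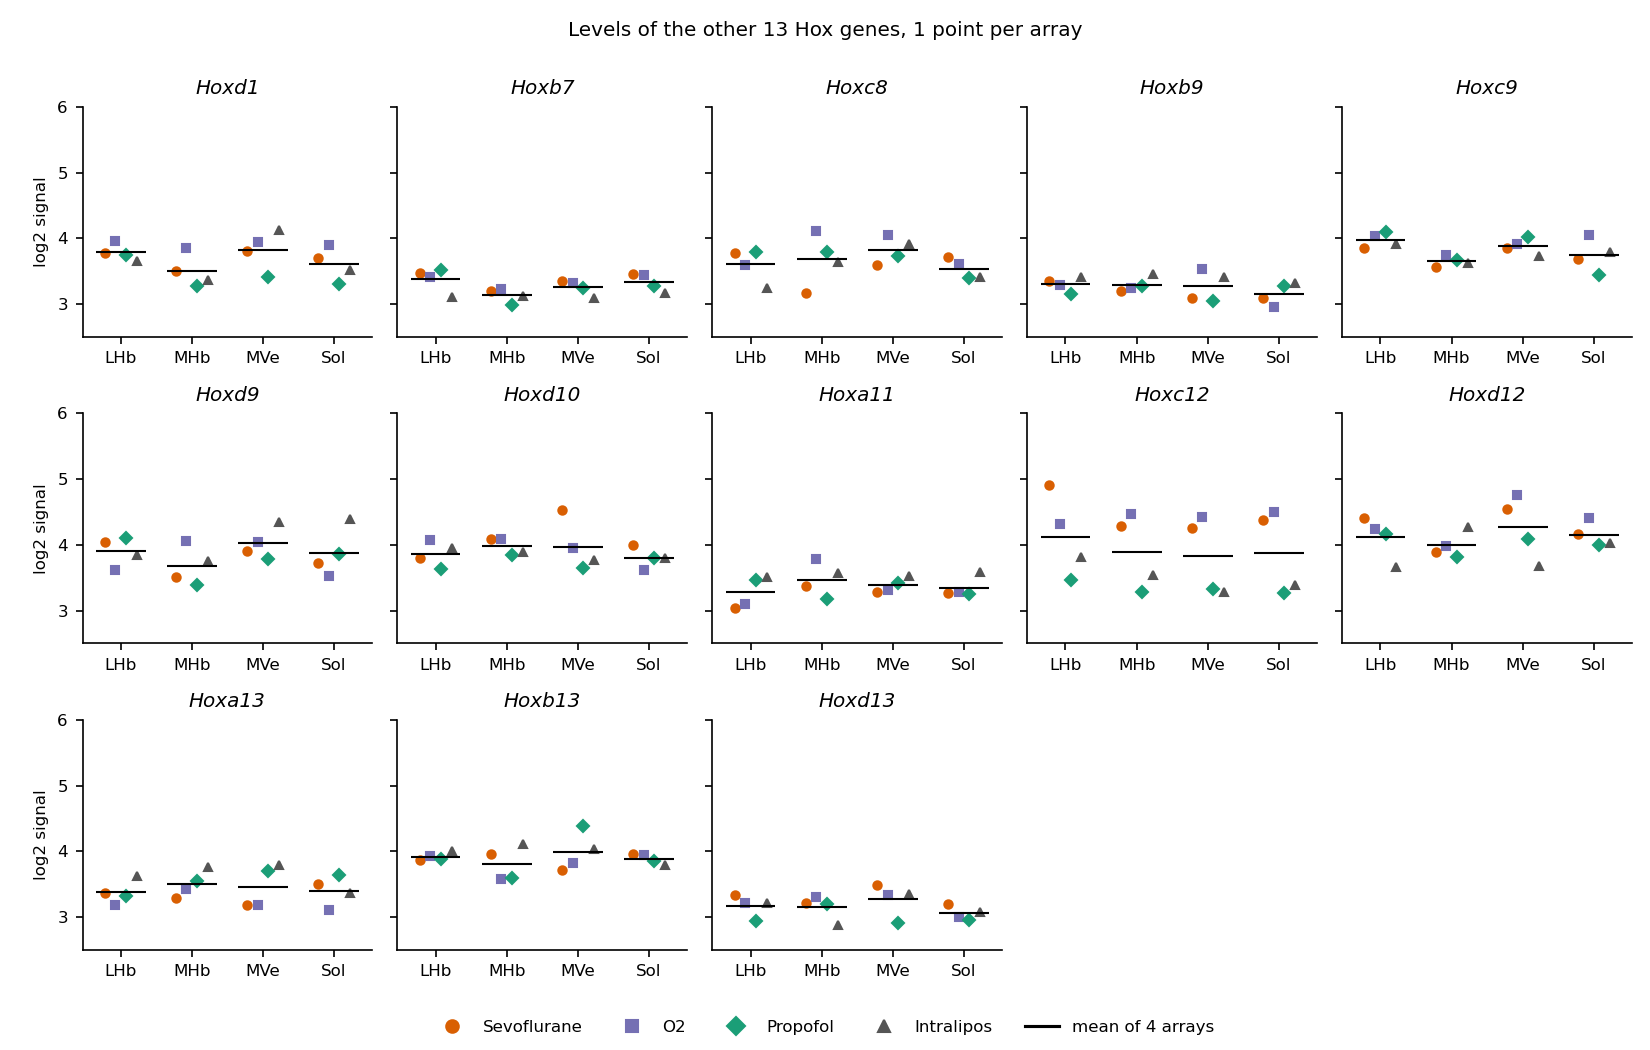
Log2 signal (y axis) of the 13 Hox genes that passed no test, by region (x axis); each point is 1 array, shape and colour give the treatment, and the bar is the mean of 4 arrays. All points lie between 2.88 and 4.92, and the Hoxc12 points split by array set in every region.

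The RefSeq positions of several called genes overlap those of other transcripts, and probe positions were not used here, so signals of overlapping genes cannot be told apart. Hoxc4 and Hoxc5 overlap Hoxc6, Hoxa6 overlaps Hoxa3, Hoxb5 overlaps the RNA Hoxb5os and Hoxb3 overlaps a long noncoding RNA. Hoxa2, Hoxd3, Hoxb4, Hoxa7 and Hoxb8 overlap no other gene of the table.

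Proteins that work with Hox factors were looked at next, from lists of genes. Each count is read against all genes, of which 38.1% were called between hindbrain and habenula (19.8% higher, 18.3% lower) and 35.2% between Sol and MVe (19.3% higher, the rest lower). The TALE homeodomain proteins (Meis, Pbx and Pknox) bind DNA together with Hox proteins, and 7 of 9 listed genes were measured. In the hindbrain nuclei 1 was higher than in the habenula and 3 were lower, and 3 were higher and 0 lower in Sol than in MVe, 4 of 7 and 3 of 7 called against 38.1% and 35.2% of all genes. Meis1 averaged 11.09 ± 0.22 (SD, n = 4) in Sol and 10.47 ± 0.40 in MVe against 7.07 ± 0.58 in LHb and 6.17 ± 0.35 in MHb, a hindbrain difference of 4.16 ± 0.18 (adjusted p = 1.92e-12), and did not pass between Sol and MVe (0.62 ± 0.26, 0.0700, limma). Pbx3 went the other way between the divisions, at -1.59 ± 0.10 in the hindbrain (adjusted p = 1.82e-10), and was 1.87 ± 0.14 higher in Sol than in MVe (4.43e-09, limma). It averaged 12.86 in Sol and 10.99 in MVe against 13.05 in LHb and 13.97 in MHb. Pknox2 was -0.58 ± 0.19 for the mean of both hindbrain nuclei (adjusted p = 0.0193) and 1.68 ± 0.27 higher in Sol than in MVe (6.23e-05, limma). It averaged 7.77 in Sol and 6.09 in MVe against 7.45 in LHb and 7.58 in MHb, so MVe alone was low. Pbx2 was lower in the hindbrain by limma, at -0.65, and Pbx4 was 0.60 higher in Sol than in MVe. The Pbx4 means, 4.21 in Sol and 3.61 in MVe, lay below the negative controls.

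Retinoic acid, which sets the forward limits of Hox genes in the embryo, had its synthesis and reception genes called in both directions between the nuclei. Of 16 measured genes of 18 listed, 6 were higher and 1 lower in the hindbrain than in the habenula, and 6 were higher and 4 lower in Sol than in MVe, where 38.1% and 35.2% of all genes were called. In the hindbrain 3 were lower with arrays shifted to one median and 2 after quantile normalization. Aldh1a2, the main embryonic enzyme of retinoic acid synthesis, averaged 8.54 ± 0.86 (SD, n = 4) in Sol and 4.99 ± 0.40 in MVe, a difference of 3.54 ± 0.32 (adjusted p = 9.30e-08, limma). Rarb, a retinoic acid receptor that is itself a target of the acid, was 2.91 ± 0.25 higher in Sol than in MVe (3.44e-08), and Crabp1, which binds the acid in the cytoplasm, was 2.80 ± 0.21 higher (adjusted p = 6.70e-09, limma). Cyp26b1, which degrades retinoic acid, had the reverse order, with 9.003 ± 0.44 in MVe and 5.12 ± 0.40 in Sol, a difference of -3.88 ± 0.23 (adjusted p = 4.29e-10, limma). Aldh1a1, another synthesis enzyme, was also higher in MVe, at -2.28 for Sol minus MVe, and the receptor partner Rxra was 1.59 higher in Sol, both past the limma threshold.

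Genes that set or keep Hox patterns were counted in the same way. Among 6 measured regulators of Hox genes in the embryonic hindbrain and cord (of 12 listed), Gbx2 alone was called, at 6.23 ± 0.60 (SD, n = 4) in Sol and 4.34 ± 0.14 in MVe against 3.84 and 3.76 in LHb and MHb, 1.49 higher in the hindbrain and 1.90 higher in Sol than in MVe (limma). With arrays shifted to one median Gdf11 was called as well, at -0.30 in the hindbrain (adjusted p = 0.0271) and -0.49 for Sol minus MVe (0.0140, limma). The Polycomb and Trithorax lists, whose proteins hold Hox clusters silent or active, had 25 of 32 genes measured, with 1 higher and 9 lower in the hindbrain and 9 higher and 1 lower in Sol than in MVe. That is 10 of 25 called in each comparison, near the 38.1% and 35.2% of all genes, and the members are named as single genes past the test. Kdm6b, a demethylase that removes the Polycomb mark, was 1.32 ± 0.23 higher in Sol than in MVe (adjusted p = 0.000174, limma), and Phc1, a Polycomb subunit, was 1.01 ± 0.17 higher (0.000102). Wdr5, a Trithorax complex subunit, was 0.78 higher in Sol than in MVe and -0.54 in the hindbrain, and Cbx7, a reader of the Polycomb mark, was -1.03 in the hindbrain, all past the limma threshold. Wdr5 averaged 8.78 in Sol and 8.00 in MVe against 8.57 in LHb and 9.28 in MHb. Phc3 was 0.77 higher in Sol and Men1 was -0.63 there. These counts moved with the scaling: 5 higher and 2 lower in Sol than in MVe with arrays shifted to one median, and 0 higher and 13 lower in the hindbrain, and after quantile normalization 7 higher and 2 lower and 2 higher and 9 lower. Of 10 measured genes that flank the clusters (of 21 listed), 3 were higher and 1 lower in the hindbrain, and 1 higher and 3 lower in Sol than in MVe. That is 4 of 10 called in each, near the 38.1% and 35.2% of all genes. With either other scaling 2 were higher in the hindbrain. Skap2, beside cluster a, was 1.73 higher in the hindbrain and 1.84 higher in Sol than in MVe, whereas Atp5mc1, near cluster b, was -1.82 and Evx1, at the end of cluster a, was -0.86 for Sol minus MVe, all called by limma. The Evx1 means, 3.79 in Sol and 4.65 in MVe, lay at or below the level of the negative controls.

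Other patterning factors of the neural tube outside the clusters gave 6 of 15 measured genes (of 20 listed) higher and 4 lower in the hindbrain, and 2 higher and 4 lower in Sol than in MVe. Of all genes 38.1% and 35.2% were called in these comparisons. With arrays shifted to one median, 1 was higher and 5 were lower in Sol than in MVe. Pax2, which marks inhibitory interneurons, averaged 7.06 ± 1.05 (SD, n = 4) in MVe and 5.71 ± 0.27 in Sol against 3.83 and 3.91 in LHb and MHb, a hindbrain difference of 2.52 ± 0.19 (adjusted p = 5.25e-09, limma). Irx2, a habenular marker as well, was -2.60 ± 0.16 in the hindbrain (adjusted p = 2.29e-10, limma). Irx6 was -1.37 in the hindbrain, and Lbx1, a dorsal interneuron gene, was 1.21 higher there, both called by limma. The Irx6 difference came from MHb, where it averaged 5.75. In LHb, Sol and MVe it averaged 3.55, 3.17 and 3.40, below the negative controls.

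Whether an anesthetic moved the Hox genes was tested across the 4 regions. Sevoflurane against O2 gave 0 of 23 genes past the threshold (limma, 0.00% of all genes), and propofol against Intralipos gave 0 of 23 (0.0200% of all genes). At an unadjusted p under 0.05 there was 1 gene in each, with 4.99% and 6.92% of all genes. That gene was Hoxc4 for sevoflurane, at 0.57 ± 0.22 (adjusted p = 0.975), where the single differences were 0.89 in MHb, 0.86 in LHb, 0.49 in MVe and 0.04 in Sol, so the larger values came from regions where its signal lay near the negative controls. For propofol it was Hoxd3, at 0.54 ± 0.25 (adjusted p = 0.720), with 1.01 in Sol, 0.87 in LHb, 0.58 in MHb and -0.29 in MVe. Whether an effect differed between hindbrain and habenula was tested with an interaction term (6 residual degrees of freedom), which called 0 of 23 genes for either agent (0.00% of all genes). At an unadjusted p under 0.05 that fit gave 0 genes for sevoflurane (5.34% of all genes) and 1 for propofol (5.43%), Hoxb5, at 1.22 ± 0.35 (adjusted p = 0.849, limma). These designs miss small changes, since over the 23 genes the standard error of an anesthetic effect ran from 0.13 to 0.25 and that of the interaction from 0.27 to 0.47.

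**Figure D4:**
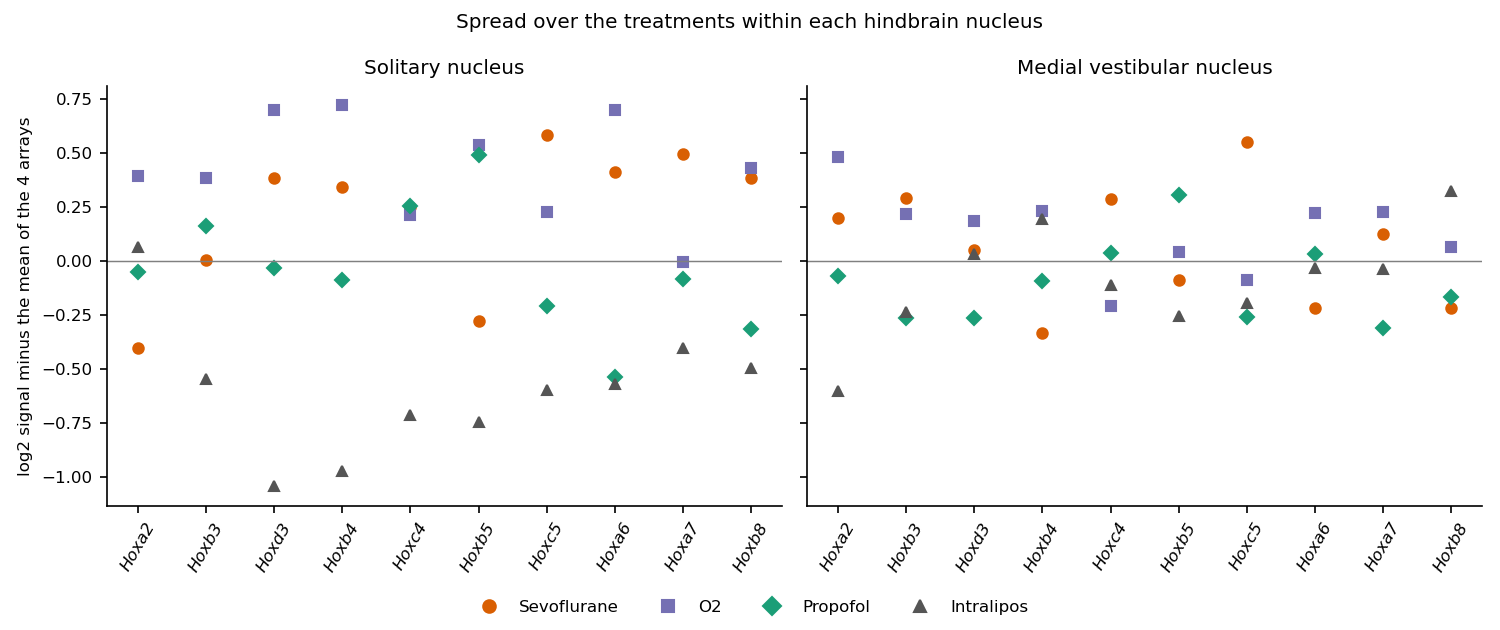
Log2 signal of the 10 called Hox genes (x axis) minus the mean of the 4 arrays of the region (y axis), for Sol on the left and MVe on the right; shape and colour give the treatment. In Sol the Intralipos array is lowest for 9 of 10 genes, and in MVe no treatment holds that place for more than 4. The share of all genes with the same lowest array was not counted.

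Within regions the spread of the called genes over the 4 arrays was largest in Sol. The standard deviation over the 4 arrays had a median of 0.50 over the 10 genes in Sol, from 0.33 to 0.76, against 0.24 in MVe, 0.27 in LHb and 0.22 in MHb. With arrays shifted to one median these were 0.39 in Sol, 0.26 in MVe, 0.33 in LHb and 0.32 in MHb, and 0.25 for the 13 uncalled Hox genes in Sol. Without that shift the median over all 15037 genes was 0.29 in Sol and 0.29 to 0.30 elsewhere, and the 13 uncalled Hox genes had 0.17 in Sol. These are descriptions with 1 array per treatment and no replicate check. The 10 genes were called for being higher in Sol, and their habenula signals lay around the negative controls. The comparison of spread between regions, and with the 13 uncalled genes, is therefore not independent of that choice. The Intralipos array was the lowest of the Sol arrays for 9 of the 10 genes, all but Hoxa2, and the O2 array was the highest for 7. How many of all genes had the same lowest or highest Sol array was not counted. The Intralipos array also had the lowest median over named genes of the Sol arrays, 6.75 against 6.82 to 7.19. With arrays shifted to one median the Intralipos array was lowest for 7, and after quantile normalization for 8. Without that array the Sol median of the standard deviation was 0.40 over the other 3 arrays.

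Paired by agent, the Sol array of propofol lay above that of Intralipos for 13 of the 23 Hox genes, with a median difference of 0.03. Of all genes 51.0% lay above 0, and their median was 0.01. For the 10 called genes it was 9, with a median of 0.55, and for the 13 uncalled genes 4, with a median of -0.04. The 10 were called for being higher in Sol on these same arrays, and each value is 1 array against 1, so the 9 are not independent counts. Hoxb5 at 1.24 and Hoxd3 at 1.01 reached 2-fold (1.56% of all genes did so), followed by Hoxc4 at 0.97, Hoxb4 at 0.88 and Hoxb3 at 0.71. Hoxa2 was the exception at -0.11. Sevoflurane minus O2 in Sol had a median of -0.007 over the 23 Hox genes, with 11 of them above 0 (49.5% of all genes). Over the 10 called genes the median was -0.30, with 3 above 0, from -0.81 for Hoxb5 to 0.50 for Hoxa7. In MVe the medians were -0.13 for sevoflurane and -0.05 for propofol, in LHb they were 0.04 and -0.14, and in MHb they were -0.14 and -0.17. Among the 10 called genes the single value largest in size outside Sol was 0.89, for Hoxc4 in MHb with sevoflurane, and among the other 13 it was -0.94, for Hoxc8 in the same pair.

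**Figure D5:**
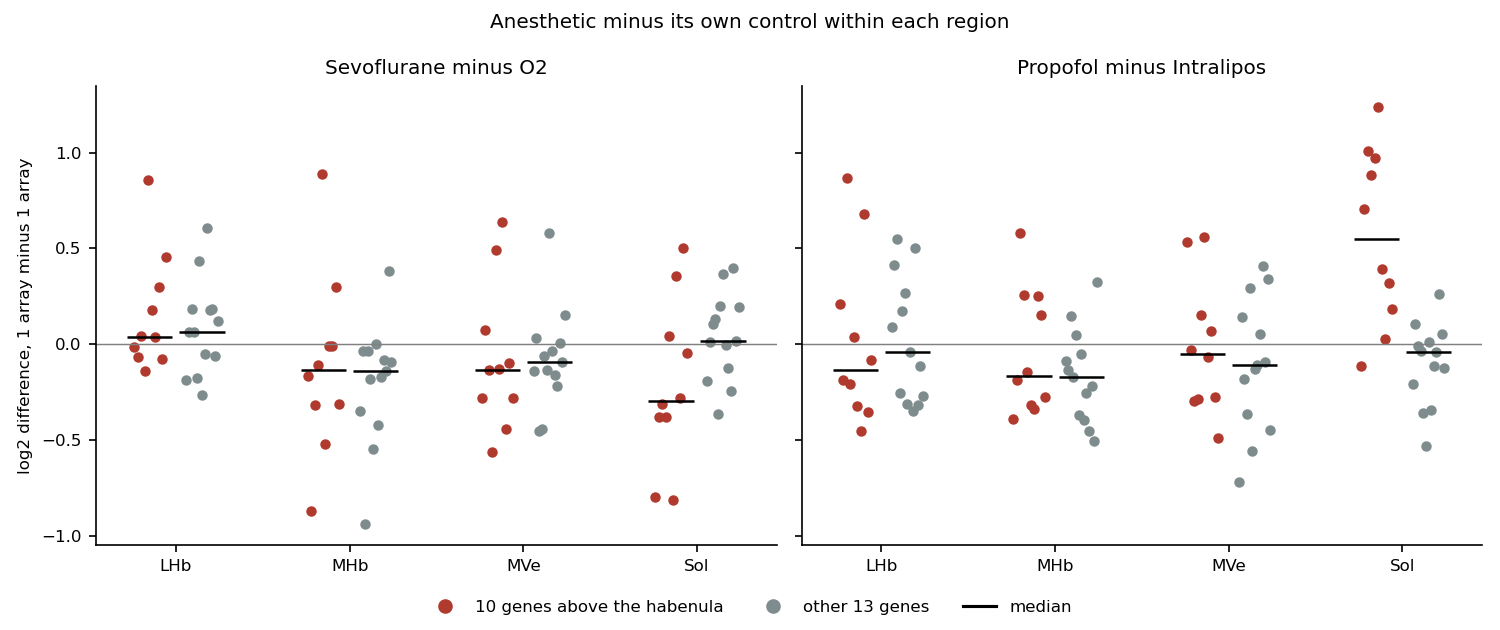
Log2 difference between the array of an anesthetic and that of its own control (y axis) within each region (x axis), for sevoflurane on the left and propofol on the right; each point is a Hox gene, red for the 10 called and grey for the other 13, and bars are medians. The 10 called genes in Sol have a median of 0.55 with propofol and -0.30 with sevoflurane, and the other medians lie nearer to 0.

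Markers of region and neighbouring tissue moved over the same Sol arrays. The 8 measured solitary markers of 11 listed averaged 8.30, 8.74, 8.06 and 7.70 in the order given above, with Dbh at 10.70, 11.88, 11.39 and 10.16 and Calcr, the calcitonin receptor, at 8.77, 8.64, 7.36 and 6.07. Over these 8 markers the median of propofol minus Intralipos was 0.15, with 5 higher and Cartpt, Glp1r and Phox2a lower. The 10 measured choroid plexus genes of 11 listed averaged 5.88, 6.73, 6.23 and 5.08, 8 of them being higher with propofol than with Intralipos, and their defining transcript Ttr read 12.18, 15.10, 13.28 and 7.18. The 7 meningeal and fibroblast genes averaged 7.05, 7.36, 7.21 and 6.83, and Aldh1a2 read 8.62, 9.42, 8.74 and 7.36. The Intralipos array was thus the lowest, and the O2 array the highest, for each of the solitary, choroid plexus and meningeal lists and for Dbh and Aldh1a2. Other lists had other orders in Sol. The propofol array was lowest for the astrocyte, oligodendrocyte, ependymal and blood lists. The microglial, endothelial and motor neuron lists were lowest with Intralipos but highest with sevoflurane. In MVe the choroid plexus genes were higher with propofol in 10 of 10, by a median of 0.80. The 10 Hox genes had a median of -0.05 there, but only 4 of them were called above the habenula in MVe. The 13 neuronal genes averaged 13.64, 13.76, 13.998 and 13.74 in Sol. The part of the dissected field in the Hox values was not tested.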

How the data were processed

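Per the submitters' processing notes, the authors used Affymetrix Expression Console 1.3.0 to make the deposited values, read here as log2 signals because of their range. How probes were summarized, and on which build, is not given in the sources used here. Of 24834 probe sets in the table, 1646 were controls by their identifiers, 15049 had 1 gene symbol in the platform annotation, 8139 had none and 0 had several. The probe set with the highest mean was kept for each gene, which left 15037 genes, with no renormalization and no filter.

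An additive model of region and treatment was fitted to the 16 arrays by limma 3.58.1 (R 4.3.3), with 9 residual degrees of freedom, empirical Bayes variances, two-sided tests and Benjamini-Hochberg adjustment over 15037 genes at a threshold of 0.05. Treatments served as replicates of a region, regions as replicates of a treatment, and the number of arrays limits the precision. Every Hox gene was named, and of each companion list at most 6 genes past the threshold by size of difference. The members and lists were chosen with earlier results of these data known. Alternatives were leave-one-out fits, other scalings, a dim-gene filter, other probe rules, other variance estimates and fits within array sets. The fit was tested on simulated data. Overlaps, CpG counts and motif matches were computed with Python 3.11.15, numpy 2.4.6 and pandas 2.3.3, figures were drawn with matplotlib 3.10.9, and promoter sequences are those of RefSeq.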

Additional observations from a re-analysis of the deposited data

Results flagged for a closer look

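Of 92 groups of 4 arrays (23 genes in 4 regions), 4 held an array set apart from the other 3 by a gap above Dixon's critical value for the range of 4, and chance alone gives about 1 in 20 groups, so this count is near that. The Sol Intralipos array of Hoxc4 read 11.17 where the others read 12.09 to 12.13. The LHb propofol array of Hoxd3 read 4.63 against 3.76 to 3.86. At the level of the negative controls, the MHb Intralipos array of Hoxc5 read 3.66 against 3.33 to 3.37, and the Sol Intralipos array of Hoxa11 read 3.59 against 3.25 to 3.28.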

How the results depend on the processing

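The counts of Hox genes higher in the hindbrain, in Sol and in Sol against MVe were each 10 and fell to 5, 5 and 5 in the alternative that kept genes with at least 4 arrays above the median of all gene values, because that filter kept 8230 genes and 5 of the 23 Hox genes. With arrays shifted to one median, 1 Hox gene was called lower in LHb than in MHb, Hoxa7 at -0.50 (limma, adjusted p = 0.0350). Leaving out each array in turn gave 0 to 1 for that count (Hoxa7 without the LHb Intralipos array, -0.54, adjusted p = 0.0315), 8 to 10 for the hindbrain, 10 to 10 for Sol, 3 to 5 for MVe and 9 to 10 for Sol against MVe. The MVe difference of Hoxc5, which was never called, turned to -0.065 in the propofol and Intralipos arrays alone; the cause was not tested. For both hindbrain nuclei together, Hoxa7 was also not called in the sevoflurane and O2 arrays alone, in the propofol and Intralipos arrays alone, with arrays shifted to one median, after quantile normalization or with no treatment term (adjusted p = 0.120, 0.223, 0.102, 0.0509 and 0.124), and Hoxb8 not in the propofol and Intralipos arrays alone or with the median shift (0.487 and 0.0636). Hoxa2, Hoxb3, Hoxb4, Hoxc4, Hoxb5, Hoxc5 and Hoxa6 kept their calls over the habenula in Sol under all alternatives that tested them, as did Hoxd3. No anesthetic test called a Hox gene under any alternative. No paired analysis was possible by replicate number, because no group of the labels holds more than 1 array; the treatment term of the additive model already compares regions within treatments, and without it 9 Hox genes were higher in the hindbrain, 10 in Sol, 4 in MVe and 9 in Sol against MVe. Leaving out single arrays for the spread and rescaling the companion lists were chosen after seeing the data. Signals near the negative controls limit what the 13 uncalled genes can show, and how far the Sol calls of Hoxa7 and Hoxb8 can be read.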
